A study of Mus musculus with 4 samples.

Results

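Zfx, Zfy1, Zfy2 and Zfa form a small family of closely related zinc finger genes that sit on the X chromosome, the Y chromosome and an autosome of the mouse. Their RNA was followed in pachytene spermatocytes cultured with or without the ATR inhibitor AZ20. The 4 genes were chosen by symbol among the 23420 named genes of the expression table. 3 of them were listed under the same symbol, and Zfa was listed as Zfa-ps, for which RefSeq gives Zfa as a synonym. All 4 libraries came from WT B6 males of 23 weeks, whose testicular cells were stained with a DNA dye and sorted by FACS for pachytene spermatocytes. The sorted cells were cultured for 24 h with the solvent DMSO (Ctrl, n = 2 libraries) or with 10 µM AZ20 (n = 2 libraries), and RNA-seq was then performed. The study's methods state that in each experiment the cells of a mouse were shared out between the conditions. Libraries with the same replicate number are taken here as a pair, Ctrl 1 with AZ20 1 and Ctrl 2 with AZ20 2. Levels are given as TPM, a read count divided by transcript length and scaled to the same total in each library, so that genes can be set side by side.

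Zfx and the Zfy genes encode transcription factors with a long array of C2H2 zinc fingers, and they descend from an ancestral gene carried by the chromosome pair that became X and Y. Zfa is a retrocopy of Zfx on chromosome 10 that is transcribed in the testis, and both GENCODE and RefSeq class it as a transcribed pseudogene. In pachytene spermatocytes the X and Y are silenced by meiotic sex chromosome inactivation (MSCI), which depends on DNA damage response signaling through the kinase ATR. Zfy1 and Zfy2 are known from mouse genetics for the loss of pachytene spermatocytes when they escape this silencing and for later roles in spermatogenesis.

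The 4 genes are alike enough in sequence that the assignment of reads matters. Within the coding alignment, Zfy1 and Zfy2 were 97.4% identical over 2328 bases and Zfx and Zfa 97.7% identical over 2229 bases, whereas Zfx was 79.3% identical to Zfy1 and 79.1% to Zfy2. A stretch of 90 bases near the end of the zinc finger array is printed below. It holds bases 2291 to 2380 of the Zfx reading frame and the bases aligned to them in the GENCODE transcripts of the other genes (GRCm38). In this stretch Zfx was closer to the Zfy genes than over the coding alignment. Capitals mark bases that differ from Zfx, 6 in Zfy1, 5 in Zfy2 and 2 in Zfa.
Zfx: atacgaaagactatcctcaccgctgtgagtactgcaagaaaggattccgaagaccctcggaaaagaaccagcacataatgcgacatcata
Zfy1: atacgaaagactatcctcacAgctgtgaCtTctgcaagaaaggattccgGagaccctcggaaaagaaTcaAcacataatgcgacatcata
Zfy2: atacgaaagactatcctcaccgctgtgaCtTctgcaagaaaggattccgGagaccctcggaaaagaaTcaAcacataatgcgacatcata
Zfa: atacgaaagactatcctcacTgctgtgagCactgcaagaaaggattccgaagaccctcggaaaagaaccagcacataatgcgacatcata
A 150-base window, the length of 1 sequencing read, occurred in another annotated gene at 7.76% of positions in the Zfx transcript, 13.1% in Zfy1, 12.9% in Zfy2 and 5.04% in Zfa. For Zfy1 these windows were shared with Zfy2 and the reverse, 345 windows each. Of the 532 shared windows of Zfx, 165 were shared with Zfa and 367 with Gm14798. Because the authors kept only reads with a unique alignment, read pairs that lie wholly in such windows may be missing from all 4 genes.

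In Ctrl the X- and Y-linked members were barely detected and Zfa, the autosomal retrocopy, made up most of the family's RNA. In such bulk libraries, fewer cells of a type and less RNA per cell cannot be told apart. In AZ20, Zfx, Zfy1 and Zfy2 were called higher, by 3.01 to 5.72 on the log2(TPM + 1) scale, and Zfa was not called. A gene was called when limma gave an adjusted p under 0.05 over all 10316 tested genes and a change of at least 2-fold on that scale, which understates the change of genes near 0. Of the 10316 genes, 2.28% were called higher and 0.0485% lower. Among 341 tested X genes 63.3% were called higher and 0% lower, and among 8 tested Y genes 75% and 0%. Among 9931 tested autosomal genes the shares were 0.101% higher and 0.0503% lower. With the replicate number as a block in the fit, limma called 424 genes higher and 23 lower in place of 235 and 5. The same 3 family genes were called. A gene was tested when its mean was above 1 TPM in either condition. Zfx, Zfy1 and Zfy2 passed only through their AZ20 mean, as did 288 of the 341 X genes and 6 of the 8 Y genes, and Zfa passed in both conditions. The shares called on the X and Y are therefore shares of genes that the filter kept largely because they were high in AZ20. The table lists 1034 X genes and 45 Y genes, tested or not, over which 20.9% and 13.3% were called higher and the median difference was 0.09 and 0.00.

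Zfy2 on the Y (GRCm38 chrY:2106015-2170409) encodes the Y-linked factor with the highest level of the family in AZ20. It was measured at 0.563 TPM in Ctrl 1, 0.0616 in Ctrl 2, 70.9 in AZ20 1 and 62.7 in AZ20 2. These levels rest on 16, 2, 2904 and 2317 reads. Both AZ20 libraries were far above both Ctrl libraries, an order seen in 26.4% of the genes tested. The mean was 0.312 ± 0.355 TPM in Ctrl and 66.8 ± 5.82 TPM in AZ20 (SD, n = 2 each), and the change on the log2(TPM + 1) scale was 5.72 (SE 0.28, limma adjusted p = 6.35e-05). Within the first pair the TPM ratio was 126 (95% interval 77.4 to 221). Within the second pair it was 1018, with an interval of 282 to 8414 because Ctrl 2 held only 2 reads. Intervals here are exact binomial and cover counting error only. Among the 8 tested Y genes, Zfy2 had both the largest change and the highest AZ20 level.

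Zfy1, a near-identical copy on the same chromosome (GRCm38 chrY:725128-797409), reached a lower level. Its TPM was 0.427 in Ctrl 1, 0 in Ctrl 2, 14.8 in AZ20 1 and 12.5 in AZ20 2, from 12, 0, 601 and 455 reads. The AZ20 libraries again lay above both Ctrl libraries. The mean went from 0.214 ± 0.302 to 13.6 ± 1.69 TPM (SD, n = 2 each), a change of 3.61 on the log2(TPM + 1) scale (SE 0.31, limma adjusted p = 0.000778). The first pair gave a TPM ratio of 34.8 (95% interval 19.7 to 67.6), and in the second, where Ctrl 2 held 0 reads, AZ20 was at least 133-fold higher against a floor of 3 reads, while the exact 95% interval of the ratio reached down to 108. Zfy1 ranked 3 of the 8 Y genes by change.

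Zfx on the X (GRCm38 chrX:94074631-94123702), the X-linked partner of the Zfy genes and a factor used for self-renewal in several stem cell types, had the lowest AZ20 level of the sex-linked members. It was at 0.156 TPM in Ctrl 1, 0.0867 in Ctrl 2, 6.81 in AZ20 1 and 9.38 in AZ20 2, from 11, 7, 693 and 862 reads. The groups did not overlap. The mean was 0.121 ± 0.0488 TPM in Ctrl and 8.09 ± 1.82 TPM in AZ20 (SD, n = 2 each), and the change on the log2(TPM + 1) scale was 3.01 (SE 0.30, limma adjusted p = 0.00188). The TPM ratio was 43.7 in the first pair (95% interval 24.3 to 88.0) and 108 in the second (52.3 to 270). Zfx was at rank 150 of the 341 tested X genes by change, where the median change was 2.61 on the same scale and the median AZ20 level 6.45 TPM.

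Zfa on chromosome 10 (GRCm38 chr10:52542320-52545739) was the only member detected at more than 1 TPM in Ctrl. It was at 3.68 TPM in Ctrl 1, 3.35 in Ctrl 2, 1.55 in AZ20 1 and 3.68 in AZ20 2, from 127, 132, 77 and 165 reads. The AZ20 libraries lay on either side of Ctrl 2, and the groups overlapped. The mean was 3.51 ± 0.236 TPM in Ctrl and 2.61 ± 1.50 TPM in AZ20 (SD, n = 2 each), with a difference of -0.39 on the log2(TPM + 1) scale (SE 0.36, limma adjusted p = 0.834). The 2 pairs differed in direction, with a TPM ratio of 0.421 in the first (95% interval 0.313 to 0.563) and 1.10 in the second (0.869 to 1.39). Without AZ20 1 the difference was 0.05 and without AZ20 2 it was -0.82 (limma adjusted p = 0.645), so that its direction depended on AZ20 1.

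**Figure D1:**
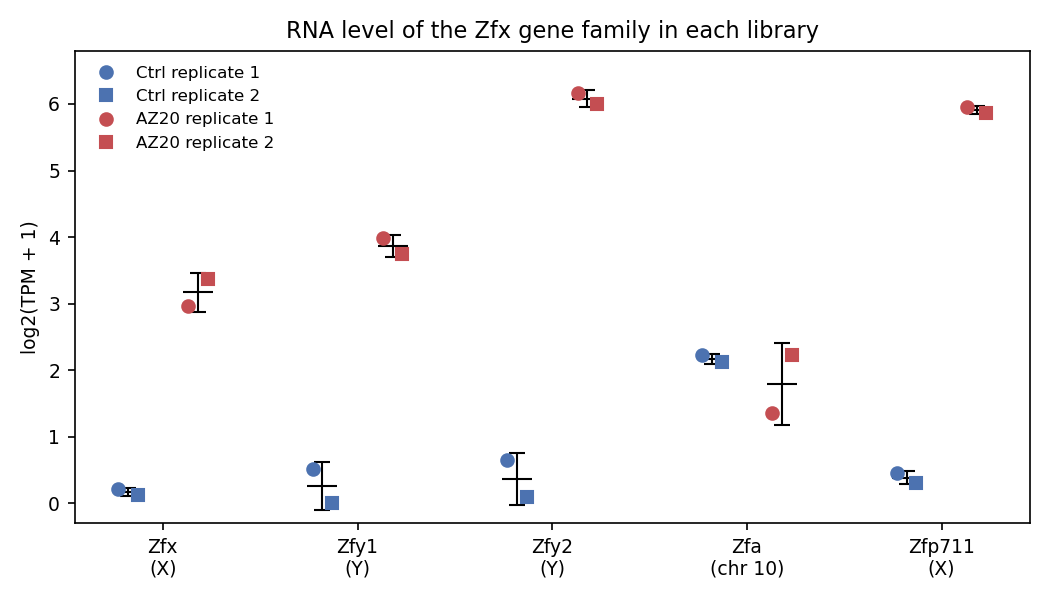
RNA level as log2(TPM + 1) of Zfx, Zfy1, Zfy2, Zfa and the further X paralog Zfp711 in the 2 Ctrl and the 2 AZ20 libraries. Points are libraries and bars the mean ± SD. Zfx, Zfy1, Zfy2 and Zfp711 are near 0 in Ctrl and separated from it in AZ20, whereas the Zfa libraries overlap.

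The plot of levels by library shows the order of the members. In Ctrl, Zfa was above the other 3 genes, whose libraries overlapped each other and could not be ordered. In AZ20 the order was Zfy2, Zfy1, Zfx and Zfa, and no library of a gene overlapped those of the next gene in the order. The calls rested on both AZ20 libraries. With either of them left out, limma called 0 genes over the whole table (714 higher and 210 lower at an unadjusted p under 0.05 without AZ20 1, and 724 and 75 without AZ20 2), and the changes of Zfx, Zfy1 and Zfy2 stayed at 2.80 to 5.80 with adjusted p values of 0.0791 to 0.124.

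The make-up of the family's RNA turned over with AZ20. The summed TPM of the 4 genes was 4.83 in Ctrl 1, 3.49 in Ctrl 2, 94.1 in AZ20 1 and 88.2 in AZ20 2. Its mean was 4.16 ± 0.942 in Ctrl and 91.2 ± 4.18 in AZ20 (SD, n = 2 each), 21.9 times as high. A two-sided exact permutation test of this sum gave p = 0.333, the smallest value that 2 against 2 libraries allow. Zfa supplied 76.3% and 95.8% of the sum in Ctrl, and 1.65% and 4.17% in AZ20. The Zfy genes together supplied 20.5% and 1.76% in Ctrl, and 91.1% and 85.2% in AZ20, most of it Zfy2 with 75.4% and 71.1%. Zfx supplied 3.23% and 2.48% in Ctrl, and 7.23% and 10.6% in AZ20.

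**Figure D2:**
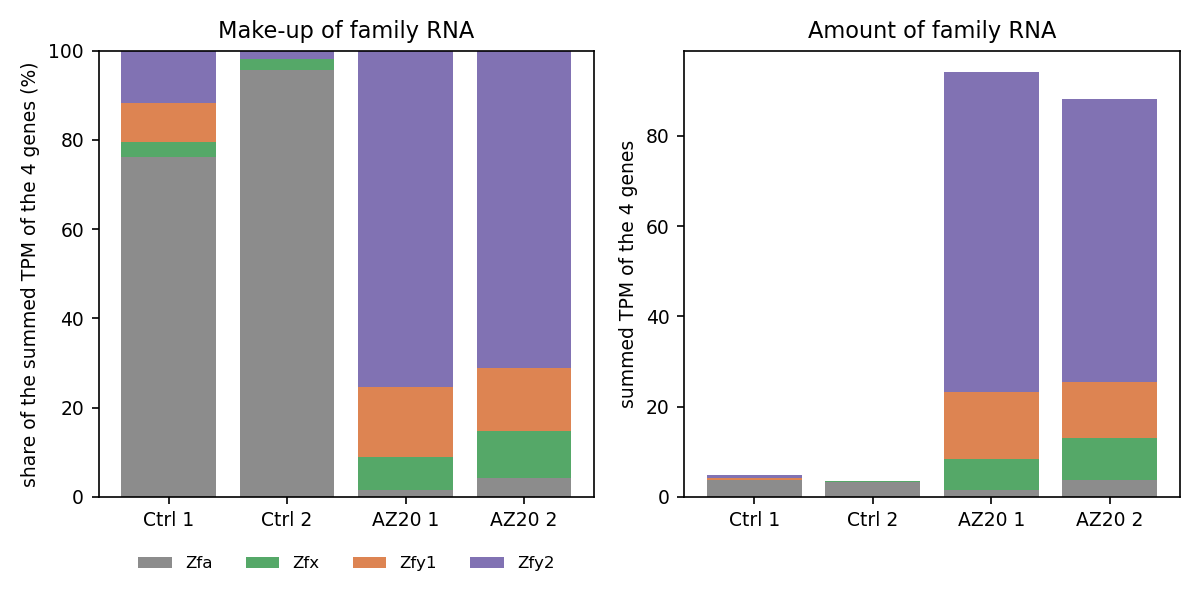
Share of the summed TPM of the 4 family genes held by each gene (left, percent) and the summed TPM itself (right) in each library, as stacked bars. Zfa fills most of the Ctrl bars, and Zfy2 fills 75.4% and 71.1% of the AZ20 bars, which are 94.1 and 88.2 TPM high against 4.83 and 3.49 TPM in Ctrl.

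The bars of family RNA show that the 2 Zfy genes did not contribute equally. The TPM ratio of Zfy2 to Zfy1 was 4.78 in AZ20 1 and 5.04 in AZ20 2, and 1.32 in Ctrl 1, where both genes were near the limit of detection. Of the reads on the Zfy genes, Zfy2 took 82.9% of 3505 in AZ20 1 (95% exact binomial interval 81.6 to 84.1) and 83.6% of 2772 in AZ20 2 (82.2 to 84.9). In Ctrl 1 its share was 57.1% of 28 reads (37.2 to 75.5), and Ctrl 2 held only 2 Zfy reads, both on Zfy2. The difference in log2(TPM + 1) between Zfy2 and Zfy1 moved from 0.11 ± 0.03 in Ctrl to 2.21 ± 0.04 in AZ20 (SD, n = 2 each), a shift of 2.10. With a pseudocount of 0.01 in place of 1 this shift was 0.68, since Zfy1 was at 0 in Ctrl 2.

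Between the other members, the shift in the difference of log2(TPM + 1) from Ctrl to AZ20 was 0.61 for Zfy1 over Zfx and 2.71 for Zfy2 over Zfx. The differences to Zfa shifted most, by 3.39 for Zfx, 4.0 for Zfy1 and 6.10 for Zfy2. All 6 pairs of members were compared, and each gave p = 0.333 in a two-sided exact permutation test (0.333 after adjustment over the 6), the smallest that this design can give. The shift of Zfy1 over Zfx was 0.28 without AZ20 1 and 1.70 with a pseudocount of 0.01. With that pseudocount the shifts to Zfa were 6.54 for Zfx, 8.24 for Zfy1 and 8.92 for Zfy2. All kept their direction, and their sizes depended on the scale.

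Zfp711 (GRCm38 chrX:112600526-112635070), a further X-linked paralog, was 67.5% identical to Zfx over the 1778 coding bases that aligned. It had no 150-base window in common with another gene. It was at 0.366 TPM in Ctrl 1, 0.240 in Ctrl 2, 61.0 in AZ20 1 and 57.3 in AZ20 2. Both AZ20 libraries were above both Ctrl libraries, and the change on the log2(TPM + 1) scale was 5.53 (SE 0.23, limma adjusted p = 4.98e-05). In each AZ20 library it was below Zfy2 and above Zfy1 and Zfx, and it ranked 31 of 341 X genes by change. Of 10 X-linked C2H2 zinc finger genes including Zfp711, 4 passed the filter. 2 of these were called higher (63.3% of tested X genes were), Zfp711 and Zfp280c (change 3.33). The other 2 tested, Zfp182 and Zfp449, had differences of 1.48 each and were not called. The median of these 4, which passed only through AZ20, was 2.40, beside 2.61 over all tested X genes, and over all 10 it was 0.24.

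**Figure D3:**
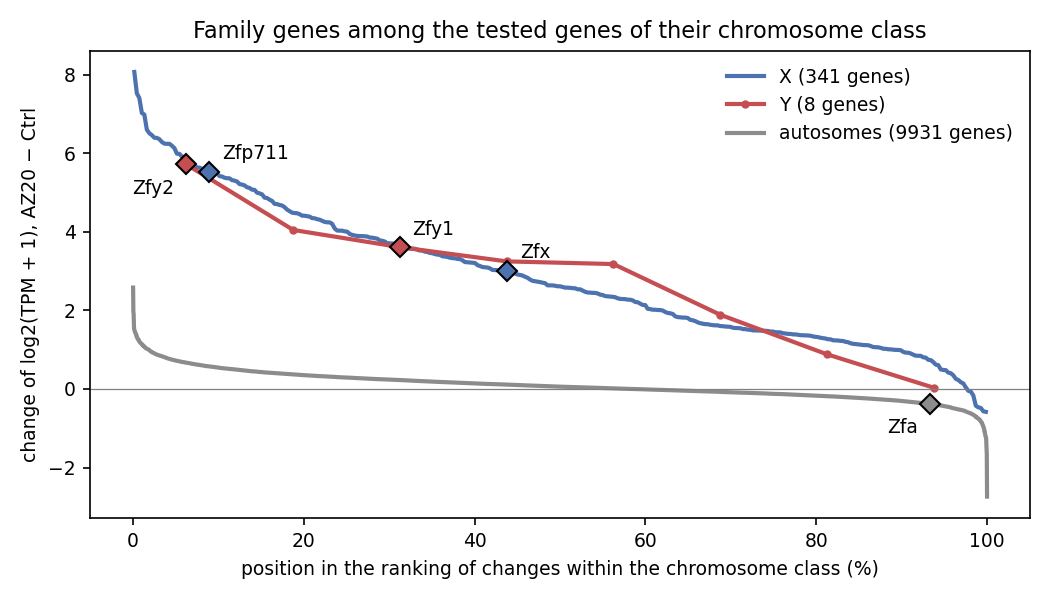
Change of log2(TPM + 1), AZ20 minus Ctrl, of all tested genes on the X (341), the Y (8) and the autosomes (9931), each sorted from highest to lowest, with rank as percent of the class on the horizontal axis. Diamonds mark the family: Zfy2 is first of the Y genes, Zfp711 and Zfx are 31 and 150 of the X genes, and Zfa is 9271 of the autosomal genes, a place that rests on AZ20 1.

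The curves of ranked changes place the family against its chromosomes. Zfa ranked 9271 of 9931 autosomal genes by difference, where the median was 0.06, but this rank rests on AZ20 1, without which the difference was 0.05. Genes that start within 1 Mb of a member were looked up next. Near Zfx, Apoo and Maged1 were called higher (3.23 and 2.22 on the log2(TPM + 1) scale), and Pdk3, at 1.14, was not. Near Zfy1, the tested neighbours were Uba1y, Eif2s3y, Ddx3y, Usp9y and Uty, of which Uty, at 0.88, was not called and the other 4 were called higher. Ddx3y and Usp9y also lie within 1 Mb of Zfy2. For comparison, 63.3% of all tested X genes and 75% of all tested Y genes were called higher. None of the 6 tested neighbours of Zfa was called, with differences of 0.06 to 0.71 (limma, adjusted p = 0.395 to 0.974). Of all tested autosomal genes, 0.101% were called higher and 0.0503% lower.

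Zfx and Zfy are one of several gene pairs that have kept a copy on both sex chromosomes. Of 8 other X partners on a list of such pairs, 6 were tested and 4 were called higher (63.3% of tested X genes were), with a median change of 2.30 (1.01 for Kdm6a to 3.42 for Ddx3x). Over all 8 the median difference was 1.95 and the lowest 0.09. Of their 8 Y partners, 5 were tested and 4 were called higher (75% of tested Y genes were), with a median of 3.18 (0.88 for Uty to 4.05 for Eif2s3y). The other 3, Kdm5d, Rbmy and Sry, were below the filter with differences of 0.11, 0 and 0, and over all 8 the median was 1.39. The 5 tested Y partners are the same genes as the tested neighbours of Zfy1. With Zfy1 and Zfy2 they make up most of the 8 tested Y genes, so the 75% is no separate background. The changes of Zfx (3.01) and Zfy1 (3.61) lay within the ranges of the tested X and Y partners. That of Zfy2 (5.72) lay above them. In AZ20 the 2 Zfy genes together had 9.94 times the mean TPM of Zfx (12.6 and 8.01 in the libraries). For the translation initiation pair Eif2s3x and Eif2s3y the Y copy was at 32.2 TPM and the X copy at 0.0839 TPM. The Y to X ratio was 2.10 for the deubiquitinase pair Usp9y and Usp9x, 0.791 for the RNA helicases Ddx3y and Ddx3x, 0.904 for the ubiquitin-activating enzymes Uba1y and Uba1, and 1.06 for the demethylase pair Uty and Kdm6a. It was 0.0202 for the demethylases Kdm5d and Kdm5c, from 0.0404 in AZ20 1 and 0.00315 in AZ20 2, with Kdm5d under the filter. These are ratios of means over 2 libraries and were not tested. Those of the Ddx3, Uba1 and Uty pairs lay above 1 in AZ20 1 and below 1 in AZ20 2.

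Zfa was also compared with other autosomal retrocopies of X genes. Of 15 retrogenes on a list of such pairs, 14 were tested and 0 were called by limma. Calls were as rare among all tested autosomal genes (0.101% higher and 0.0503% lower). At an unadjusted limma p under 0.05, 1 retrogene, Rbmxl2, was higher and 0 were lower, beside 828 and 117 of all 10316 tested genes. The retrogenes had a median difference of -0.03 and a range of -0.48 for Gk2 to 0.62 for Rbmxl2. Of their X-linked parents, 14 of 15 were found in the table, 10 were tested and 8 were called higher (63.3% of tested X genes were), with a median of 3.51 and a range of 0.50 for Pgk1 to 6.39 for the centrin gene Cetn2. The other 4, Pdha1, Timm8a1, Naa10 and G6pdx, were below the filter with differences of 0 to 0.27, and over all 14 the median was 2.27. The difference of Zfa (-0.39) and the change of Zfx (3.01) lay within the ranges of retrogenes and parents.

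The balance of retrocopy and parent differed between pairs. The TPM ratio of Zfa to Zfx was 23.6 in Ctrl 1, 38.6 in Ctrl 2, 0.227 in AZ20 1 and 0.392 in AZ20 2, so the retrocopy was above its parent in both Ctrl libraries and below it in both AZ20 libraries. In AZ20 the ribosomal protein copy Rpl10l was at 32.9 times the TPM of Rpl10 and Cetn1 at 66.8 times that of Cetn2. The ratio was 1.14 for the nucleotide synthesis genes Prps1l1 and Prps1, on either side of 1 in the 2 libraries, and 0.0163 for Ubl4b and Ubl4. A switch like that of Zfa and Zfx was also seen in other pairs. The Ubl4b to Ubl4 ratio was 2.69 and 1.96 in Ctrl, and 0.0227 and 0.00803 in AZ20. Rbmxl2 was above Rbmx in both Ctrl libraries, with Rbmx at 0 in Ctrl 1. In AZ20 their ratio was 0.887 and 0.612. Rbmx is on the list of X-Y pairs as well as on that of retrogene parents.

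**Figure D4:**
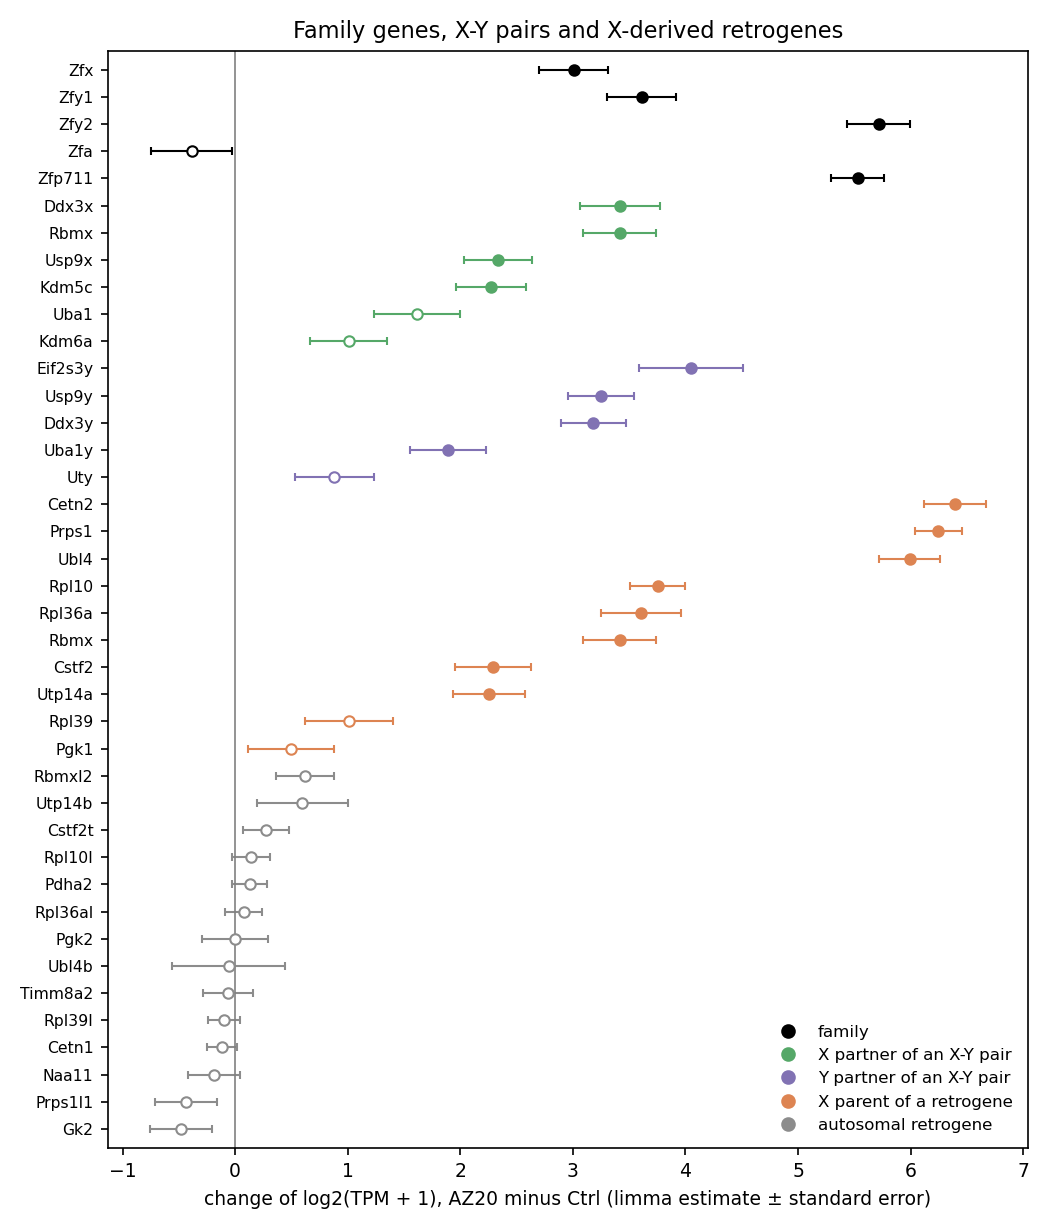
Change of log2(TPM + 1), AZ20 minus Ctrl, as limma estimate ± standard error for the family (black), X and Y partners of X-Y pairs, X parents of retrogenes and autosomal retrogenes. Filled circles are called and open circles are not. Zfx, Zfy1 and Zfy2 lie at 3.01, 3.61 and 5.72 among the X and Y genes, and Zfa at -0.39 among the retrogenes, none of which is filled.

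The chart of changes by class shows each tested gene of these lists beside the family. By Euclidean distance in log2(TPM + 1) over the 4 libraries, the genes most like Zfx were the X genes Lamp2 (0.256), Map7d2, Zfp280c, Slc25a14 and Mageb4. Those most like Zfy1 were Rpl36a (0.330), Gm2012, Zcchc13, Gm5169 and Rab9, and those most like Zfy2 were Wbp5 (0.242), Prame, Zfp711, Xlr and Gm5071, all on the X. X genes made up 216 of the 235 genes called higher, and only 8 Y genes were tested, so few genes off the X could be near. Zfa was most like the autosomal genes Map3k1 (0.254), Phip, Gm6460, B230120H23Rik and Haus2.

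The annotated promoters of the sex-linked members differed in base composition. They are shown because these genes changed together, as the 120 bases before the RefSeq start site on the minus strand of GRCm38, with matches to CCAAT or GGGCGG on either strand in capitals. Zfx has 2 annotated start sites.
Zfx, chrX:94123408-94123527: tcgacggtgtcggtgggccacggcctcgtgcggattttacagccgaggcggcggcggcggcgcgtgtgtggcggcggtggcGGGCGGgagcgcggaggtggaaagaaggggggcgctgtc
Zfx, chrX:94123768-94123887: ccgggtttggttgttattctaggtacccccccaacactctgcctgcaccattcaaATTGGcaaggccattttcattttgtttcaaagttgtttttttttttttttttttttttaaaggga
Zfy1, chrY:797410-797529: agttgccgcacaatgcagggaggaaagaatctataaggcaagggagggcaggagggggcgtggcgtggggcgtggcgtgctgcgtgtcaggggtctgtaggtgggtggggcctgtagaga
Zfy2, chrY:2170410-2170529: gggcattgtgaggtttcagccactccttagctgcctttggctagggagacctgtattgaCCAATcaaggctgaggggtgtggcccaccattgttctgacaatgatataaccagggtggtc
Over the 300 bases around each start, the first Zfx promoter had 75.3% GC and 39 CpG, and the second 40.0% GC and 5 CpG. The Zfy1 window had 47.7% GC with 8 CpG and the Zfy2 window 47.3% GC with 1 CpG, beside medians of 52.7% and 7 over 32851 promoters. CCAAT occurred in the second Zfx window and in Zfy2, as in 37.4% of all promoters, and GGGCGG in the first Zfx window, as in 35.7%. AGGCCT, TGACGTCA and TATAAA were searched on both strands and were not found in these windows.

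Whole reads recovered from TPM summed to 13940032 and 15821883 on genes in Ctrl and to 20211267 and 18510679 in AZ20. Reads on the Y made up 0.00135% and 0.000284% in Ctrl and 0.0324% and 0.0276% in AZ20. The 8 pachytene markers, among them Sycp3 and Piwil1, summed to 10027 to 10357 TPM in each library, of which Ldhc alone held 5216 to 6178 TPM. Their changes on the log2(TPM + 1) scale ran from -0.54 for Ccna1 to 0.29 for Sycp3. Markers of Sertoli, Leydig and peritubular myoid cells and of macrophages summed to at most 4.60 TPM for any cell type in any library.

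The 8 round spermatid markers, among them the protamine gene Prm1, all passed the filter. They summed to 359 TPM in Ctrl 1, 150 in Ctrl 2, 770 in AZ20 1 and 249 in AZ20 2. Limma called 0 of the 8, beside 0.101% of tested autosomal genes called higher and 0.0503% lower. At an unadjusted limma p under 0.05 there were also 0, beside 828 higher and 117 lower of all 10316 tested genes. Each marker still had a higher mean in AZ20. Their changes on the log2(TPM + 1) scale were 0.24 for Acrv1 to 1.15 for Spem1, with SEs of 0.29 for Acrv1 to 0.69 for Tnp1. Ctrl 1 was above Ctrl 2 both in the spermatid sum and in Zfy reads (28 against 2), and the part of the markers in the Zfy reads of Ctrl was not tested. Within each pair the spermatid sum was higher in AZ20 than in Ctrl, and the part of these markers in the Zfy levels of AZ20 was not tested either. The 8 spermatogonial markers summed to 7.99 to 20.5 TPM, most of it Uchl1 at 7.60 to 20.1 TPM, with 3 of them at 0 in every library. The 5 leptotene and zygotene markers found summed to 17.2 to 22.1 TPM.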

How the data were processed

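RNA-seq of sorted pachytene spermatocytes was measured in 4 libraries, 2 Ctrl and 2 AZ20. After trimming (Trimmomatic 0.39), unique alignment to GRCm38/mm10 (STAR 2.5.4b) and counting on UCSC refGene (featureCounts 2.0.1), the authors deposited TPM. Sources differ on the culture temperature and the sequencer, which are not used here. 92 lines without a gene name were left out.

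TPM were tested with limma 3.58.1 (R 4.3.3) with an intensity trend on log2(TPM + 1), AZ20 against Ctrl, on 10316 genes with a mean above 1 TPM in either group, with Benjamini-Hochberg adjustment over all of them. Single values were compared by exact permutation over libraries with scipy 1.17.1. Tested on simulated data of this comparison with 10019 tested genes, the test called 20.0% of genes changed 2-fold and 100% of those raised 4-fold. Of the 170 genes it called there, 12 had not been changed. The simulation used 1 fixed spread of reads and no pairing. A floor on expected reads kept out changed genes with as few Ctrl reads as Zfx, Zfy1 and Zfy2, so it does not cover them. Whole reads were recovered for all 16857 genes above 0, using that TPM is reads per length times 1 factor per library. Any common factor of a gene's reads stays hidden, but the length recovered for each family gene was that of an annotated transcript (for Zfy1 2785 against 2783 bases). Genes were placed by GENCODE M21 and RefSeq on GRCm38, with 127 of 23420 unplaced. Sequences and promoters come from these sets. Zfa has no promoter entry and no proteins were used.

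Libraries were paired by replicate number, which is an assumption. The methods state that a mouse's cells were split between conditions, but neither they nor the labels say which libraries share a mouse. Same-numbered libraries deviated together (r = 0.232 across 9931 autosomal genes, which are not independent). The main fit has no block. The genes named are the 4 members, Zfp711, the listed gene pairs and zinc finger genes, the tested genes within 1 Mb and the 5 nearest in level. The members and lists were chosen with earlier results of these data known.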

Additional observations from a re-analysis of the deposited data

How the results depend on the processing

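Zfx and Zfy2 kept their direction and call under each setting except the loss of an AZ20 library. Zfy1 also lost its call with a pseudocount of 0.01 (change 7.68, limma adjusted p = 0.184). Leaving out each library in turn, the change ranged from 2.80 to 3.21 for Zfx, 3.35 to 3.87 for Zfy1, 5.44 to 5.99 for Zfy2, 5.46 to 5.60 for Zfp711 and -0.82 to 0.05 for Zfa, which was at 0.052 without AZ20 1. The total degrees of freedom of the limma test, which include those of its prior over genes, were 6.87 with all 4 libraries. They were 2.72 and 2.76 without AZ20 1 and AZ20 2, and 5.42 and 4.81 without Ctrl 1 and Ctrl 2. Over these fits the genes called numbered 0 to 184 higher and 0 to 1 lower, X partners 0 to 2, Y partners 0 to 3, X parents 0 to 7 and X-linked zinc finger genes 0 to 2, and the summed TPM ratio was 18.9 to 26.1. With the replicate block, which pairs same-numbered libraries, 424 genes were called higher and 23 lower, against 235 and 5 without it. The total degrees of freedom with the block were 37.3, most of them from the prior over genes. The block called 4 zinc finger genes, as did the fit without a trend and voom on recovered reads, and it changed no call of the 4 members (Zfa adjusted p = 0.743). Genes called lower numbered 1 with no filter and with voom. X partners called higher numbered 2 with a mean above 5 TPM, which also left Zfa untested, Y partners 2 with no filter, and X parents 5 with a pseudocount of 0.01. Quantile normalization moved the median of all genes by -0.14, and the changes of Zfx, Zfy1, Zfy2 and Zfa were then 2.58, 3.31, 5.44 and -0.67. Voom gave 6.01, 7.40, 8.33 and -0.60. The size of a change from near 0 therefore depends on the scale. With 2 libraries per condition, and 0 to 16 Ctrl reads on each of Zfx, Zfy1 and Zfy2, depth limits the Ctrl levels and their ratios.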
